A study of Mus musculus with 6 samples.

Results

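A set of 150 probe sets was described here whose mRNAs stayed high in CNOT3-depleted MEFs after transcription was blocked, fell fast in control MEFs, and stood at nearly the same level in both cultures before the block. The members were chosen on these arrays by 5 conditions. The signal was at least 200 in both cultures at 0 h, the 0 h ratio of CNOT3-depleted to control MEFs lay from 0.8 to the reciprocal of 0.8, and the signal of CNOT3-depleted MEFs at 6 h was 0.5 to 2.0 times that at 0 h. The fraction of the 0 h signal left in CNOT3-depleted MEFs was then at least 4 times the fraction left in control MEFs, at 6 h and again at 12 h. Signals under 20 were first raised to 20. Of 45037 probe sets on the array, 14807 reached 200 in both cultures at 0 h, and 150 of these were members, which is 1.01%. The members read 131 named genes, 13 of them through 2 member probe sets each, while 5 member probe sets have no listed gene and 1 lists several. Since the rule used all 6 arrays, the values of the members are a description, and no test was made of them.

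The cells were primary fibroblasts of mouse embryos (MEFs). By the study's methods both cultures carried CNOT3 alleles flanked by loxP sites. A retrovirus expressing Cre recombinase gave the CNOT3-depleted MEFs (CNOT3KD in the labels) and a virus without Cre gave the control MEFs, which the labels call wild type, and both were kept in puromycin for 2 days. RNA was taken before and after 6 and 12 h of actinomycin D (Act. D), an inhibitor of transcription, and hybridized to 1 array for each of the 6 conditions. Array, culture and condition can therefore not be told apart, and no value has a replicate error. In bulk cultures, fewer cells of a kind and less RNA per cell cannot be told apart either.

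CNOT3 is a subunit of the CCR4-NOT complex, the main deadenylase of the cytoplasm, which shortens the poly(A) tail of mRNAs and so starts their decay. The steady-state level of an mRNA is set by its synthesis and its decay together, so that a level alone does not tell how fast an mRNA turns over. With Act. D new synthesis stops, and what is left of an mRNA over time reports its decay.

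The signals are MAS5 values on a linear scale scaled to trimmed means of 494 to 497, so the signal left at 6 or 12 h is relative to the mRNA remaining on that array. Over all 14807 probe sets at 200 or more, the median signal left at 6 and 12 h was 100.6% and 98.9% in CNOT3-depleted MEFs, compared with 91.8% and 73.4% in control MEFs. One Cnot3 probe set had signals of 239.6, 128 and 82.9 at 0, 6 and 12 h in CNOT3-depleted MEFs, against 436, 193 and 198 in control MEFs, and another had 227, 90.7 and 92.6 in CNOT3-depleted MEFs, compared with 204, 201 and 279 in control MEFs. Signal from exons that Cre leaves in place does not report the deletion, and the sources used here do not place these probe sets. Of the fibroblast markers, 27 of 29 probe sets reached 200 in both cultures at 0 h, with summed signals of 292262 to 317329 over the 3 CNOT3KD arrays and 279133 to 475467 over the 3 control arrays. Of the leukocyte markers 4 of 22 did, with sums of 10184 to 17113 over the CNOT3KD arrays and 6599 to 18766 over the control arrays, and these 4 were probe sets of the lysozymes Lyz1 and Lyz2 and of Csf1r. The brightest Lyz1 probe set had 3650, 5014 and 6580 in CNOT3-depleted MEFs, compared with 2627, 5043 and 7291 in control MEFs. The pan-leukocyte marker Ptprc stayed under 66 on every array, as did Itgam and Cd3e. Cd68, Cd14, Tyrobp and Adgre1 reached 200 at 0 h in CNOT3-depleted MEFs but not in control MEFs. Cd68 had 265, 297 and 359 in CNOT3-depleted MEFs, compared with 128, 294 and 400 in control MEFs. Of 17 epithelial marker probe sets 1 reached 200 in both cultures at 0 h, that of Krt18. It had 862, 1028 and 1087 in CNOT3-depleted MEFs, compared with 419, 328 and 162 in control MEFs. Dsp reached 200 at 0 h in CNOT3-depleted MEFs alone. Its brightest probe set had 443, 628 and 534 in CNOT3-depleted MEFs, compared with 96.2, 213 and 224 in control MEFs. The epithelial sums were 2418, 3003 and 2739 in CNOT3-depleted MEFs, compared with 1151, 1267 and 1248 in control MEFs, higher in CNOT3-depleted MEFs at each time. None of 9 endothelial and 6 of 22 muscle and neural marker probe sets reached 200, the muscle and neural list with sums of 8864 to 9536 over the CNOT3KD arrays and 6232 to 8122 over the control arrays. No member is on a marker list. The part of other cells in the members' values was not tested.

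The 150 members kept most of their signal through 6 h in CNOT3-depleted MEFs and lost most of it in control MEFs. In CNOT3-depleted MEFs the signal left at 6 h ran from 50.5% to 133% with a median of 74.0%, and at 12 h from 31.2% to 153% with a median of 63.7%. In control MEFs it ran from 3.15% to 31.9% at 6 h with a median of 14.3%, and from 1.3% to 27.0% at 12 h with a median of 8.75%. The ranges of the 2 cultures did not overlap at either time, which follows largely from the rule. At 0 h the signals of the members had a median of 1091 in CNOT3-depleted MEFs and 981 in control MEFs, and the medians were 834 in CNOT3-depleted MEFs and 142 in control MEFs at 6 h, and 681 in CNOT3-depleted MEFs and 87.3 in control MEFs at 12 h. The level in CNOT3-depleted MEFs relative to control MEFs at 0 h had a median of 1.08, with a range set by the rule. It was 3.31 to 23.6 times that of control MEFs at 6 h (median 5.51) and 3.77 to 65.9 times at 12 h (median 7.75). The 0 h ratio was above 1 for 101 members and below 1 for 49. Its median over all 14807 probe sets at 200 or more was 1.01, and the share above 1 was not computed there.

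**Figure D1:**
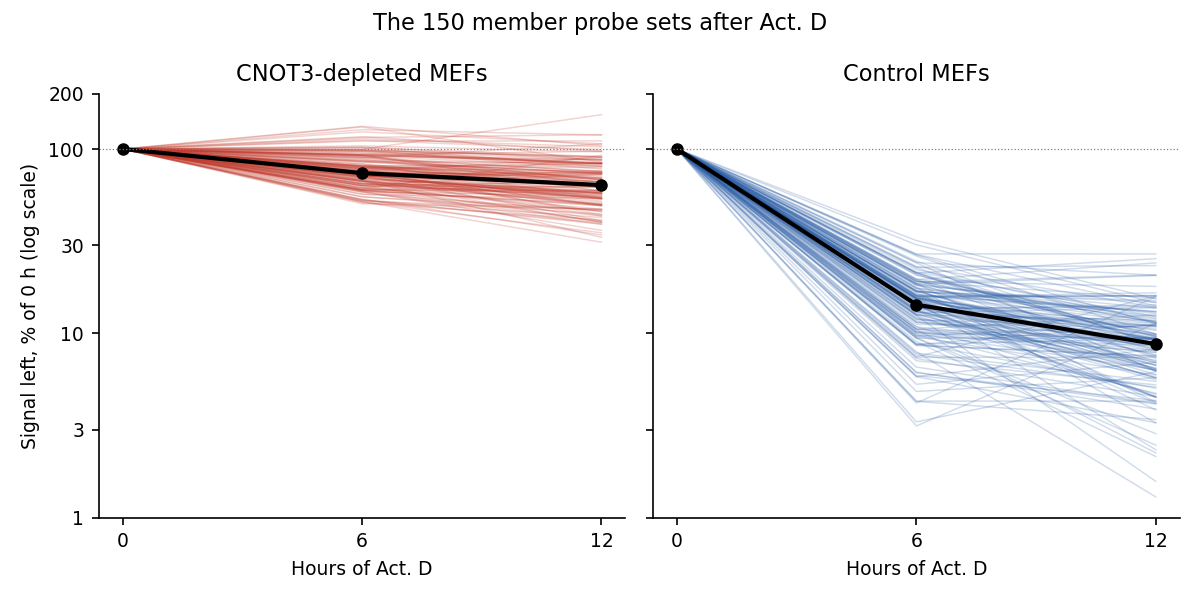
Signal left of the 150 member probe sets as a percentage of the 0 h signal (vertical, log scale) against hours of Act. D (horizontal), for CNOT3-depleted MEFs in the left panel and control MEFs in the right panel. Each thin line is 1 probe set and the black line is the median, which stood at 63.7% at 12 h in CNOT3-depleted MEFs and at 8.75% in control MEFs.

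In CNOT3-depleted MEFs 142 members were below their 0 h signal at 12 h, with a median apparent half-life of 17.8 h over the 12 h, and 8 were above it. In control MEFs the values over the first 6 h, taken as exponential decay, correspond to apparent half-lives of 1.2 to 3.64 h, median 2.14 h. The 1.2 h belongs to 1 Uck2 probe set and is an upper limit for that reading alone, because its control signal of 11.4 at 6 h was raised to 20. The brightest Uck2 probe set at 0 h, not a member, had 47.1% left at 6 h in control MEFs. The half-lives of both cultures are relative to the mRNA remaining on each array. From 6 h to 12 h the signal fell further in 134 of 150 members in CNOT3-depleted MEFs and in 127 in control MEFs. The counts of members that fell were not made over all 14807 probe sets. There the median signal left at 6 and 12 h was 100.6% and 98.9% in CNOT3-depleted MEFs. In control MEFs it was 91.8% and 73.4%. Signals under 20, close to the 25th percentile of each array (13.6 to 19.8), occurred for 15 members in control MEFs at 6 or 12 h, and for none in CNOT3-depleted MEFs. For these 15 the fold between cultures is a lower limit set by the value of 20.

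Most short-lived mRNAs of control MEFs were not members. Of the 14807 probe sets, 1773 (12.0%) had 25% or less of their signal left in control MEFs at both times, and 979 of these had a 0 h ratio within the limits of the rule. The members make up 143 of those 979, or 14.6%. Among the 1773, 536 were also at 25% or less in CNOT3-depleted MEFs at both times, and 1002 kept at least 2 times the control fraction at both times. Over all 14807 probe sets 1962 (13.3%) did the latter. The 1773 were chosen for a low control fraction, which by itself favours a high ratio, so the 2 counts are not a comparison.

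Without the condition on the 0 h ratio, 308 probe sets (2.08% of 14807) met the rest of the rule, of which the members are 48.7%. A further 113 lay above the upper limit of the 0 h ratio and 45 below 0.8. For comparison, 60.4% of all 14807 had a 0 h ratio within the limits. All 3 classes met the same limits on decay, so their likeness after Act. D follows largely from the choice. The median signal left in CNOT3-depleted MEFs at 6 and 12 h was 74.0% and 63.7% for the members, 77.0% and 67.7% for those higher at 0 h, and 81.6% and 74.9% for those lower. In control MEFs the medians were 14.3% and 8.75%, 13.7% and 9.04%, and 15.3% and 8.02%. The 0 h level was fixed by the choice of classes as well. The median level at 12 h in CNOT3-depleted MEFs was 7.75 times that of control MEFs for the members, 10.7 times for those higher and 4.89 times for those lower at 0 h. With the cultures exchanged in the rule, no probe set met it.

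**Figure D2:**
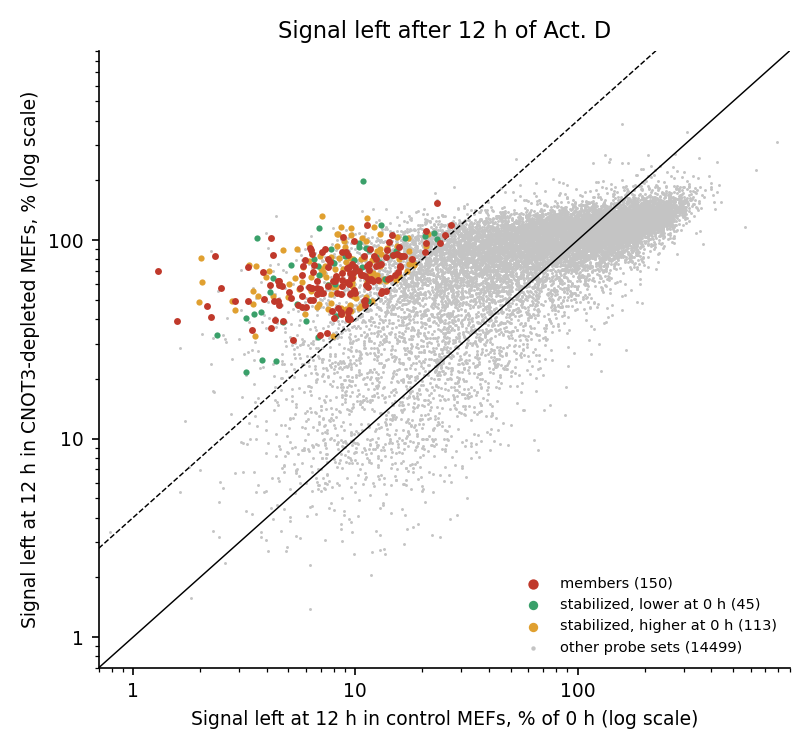
Signal left after 12 h in CNOT3-depleted MEFs (vertical) against control MEFs (horizontal), both as a percentage of 0 h on log scales, for the 14807 probe sets at 200 or more at 0 h. The 150 members are red, the 113 stabilized probe sets higher at 0 h orange, the 45 lower at 0 h green and the others grey, the solid line marks equality and the dashed line a 4-fold ratio, and the 3 coloured classes lie over each other.

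At the limit of the rule, values ran on without a break. The 3 members with the smallest ratios were Snapc2, Arfgap1 and Fastkd2, with 4.03 times the control fraction at the time of the lower ratio. Just outside were Rfc3 (4.0, below the limit before rounding), Gopc (4.0, likewise) and Tmpo (3.99). Snapc2, a subunit of the complex that starts small nuclear RNA transcription, had signals of 502, 467 and 488 in CNOT3-depleted MEFs, against 453, 88.6 and 109 in control MEFs. Rfc3, a subunit of the clamp loader of DNA replication, had 690.1, 783 and 774 in CNOT3-depleted MEFs, compared with 709, 201 and 170.5 in control MEFs. Snapc2 met the limit narrowly at 12 h, and Rfc3 missed it narrowly at 6 h. Arfgap1, of the Golgi coat cycle, had 1759, 1029.9 and 977 in CNOT3-depleted MEFs, compared with 1879, 243 and 259 in control MEFs. Fastkd2, an RNA-binding protein of mitochondria, had 622, 417 and 308 in CNOT3-depleted MEFs, compared with 758, 126 and 34.1 in control MEFs. Both were near the limit at 1 of the 2 times. Gopc, a Golgi protein with a PDZ domain, had 338, 391 and 256 in CNOT3-depleted MEFs, compared with 401, 94.7 and 76 in control MEFs. Tmpo, a protein of the nuclear lamina, had 1163, 1034 and 914 in CNOT3-depleted MEFs, compared with 1408, 314 and 143 in control MEFs.

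The largest stabilization, taken as the mean over 6 and 12 h of the log2 ratio between the fractions left in CNOT3-depleted and control MEFs, belonged to Stxbp3 (4.50), the gene of Munc18c, which binds syntaxin in vesicle fusion. At 0, 6 and 12 h its signals were 1893, 1435 and 1323 in CNOT3-depleted MEFs, against 1547, 123 and 20.1 in control MEFs. The culture levels were within 1.22-fold at 0 h and 65.9-fold apart at 12 h, where the control signal was 20.1. Kpna2 (3.94), an importin alpha that carries proteins with a nuclear localization signal into the nucleus, had 8096, 7869.8 and 6771 in CNOT3-depleted MEFs, against 9193, 1357 and 215 in control MEFs. It combined one of the highest 0 h signals of the set with a fall in control MEFs at both steps, and lost little in CNOT3-depleted MEFs. Over all 150 members stabilization ran from 2.05 to 4.50 with a median of 2.67, against a median of 0.12 over the 14807 probe sets.

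**Figure D3:**
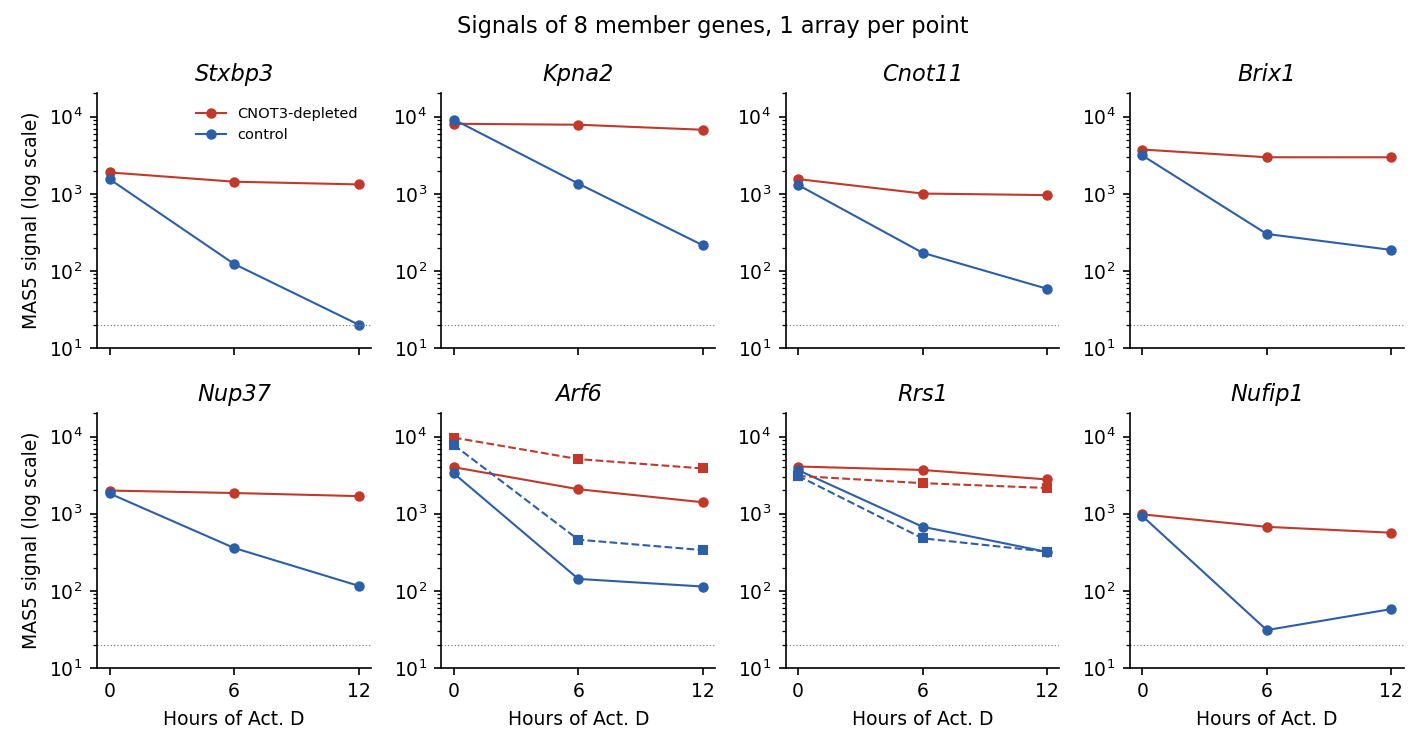
MAS5 signals (vertical, log scale) of 8 member genes at 0, 6 and 12 h of Act. D (horizontal), with CNOT3-depleted MEFs in red and control MEFs in blue, 1 array per point. Dashed lines with squares are a second member probe set (Arf6, Rrs1), the dotted line marks a signal of 20, and in each panel the cultures start together and stand apart at 6 and 12 h.

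The members were sorted by the textbook role of their genes, after their values had been seen, and the roles are given here to order the description. The largest groups were transcription and chromatin with 19 genes, membrane traffic and the cytoskeleton with 16, ribosome assembly and the nucleolus with 15, cell division and genome maintenance with 14, and splicing and other RNA processing with 13. Signalling had 10, metabolism and mitochondria 9, transfer RNA and mitochondrial translation 8, ubiquitin and SUMO 8, nuclear transport 4 and mRNA deadenylation 3. To 12 genes no role was given (Zmynd19, Fam118b, Zfyve21, BC055324, Tmcc3, Trp53bp2, Ttc33, Palm2, Cdr2, Zfp330, Swt1 and Lratd2).

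The 15 genes of ribosome assembly act in the nucleolus and on the maturing subunits. Nufip1, Brix1, Surf6, Riok1, Esf1, Tex10, Wdr43, Dcaf13, Rrs1, Mphosph10, Krr1, Gtpbp4, Aatf, Fam207a and Spata5 were read by 17 member probe sets, with a median of 80.7% and 68.9% left at 6 and 12 h in CNOT3-depleted MEFs, compared with 14.5% and 9.37% in control MEFs. Nufip1, which helps to assemble the small nucleolar RNPs that modify ribosomal RNA, had signals of 979, 675 and 566 in CNOT3-depleted MEFs, against 933, 30.9 and 57.8 in control MEFs. Its control signal was lower at 6 h than at 12 h, and both lay far below the signals of CNOT3-depleted MEFs. For Brix1, a factor of the large subunit, the signals were 3750.4, 2978 and 2975 in CNOT3-depleted MEFs, against 3141, 301 and 187 in control MEFs. By this probe set Brix1 hardly fell further after 6 h in CNOT3-depleted MEFs. Another Brix1 probe set, not a member, did, with 449, 244 and 162 in CNOT3-depleted MEFs, compared with 449, 102 and 141 in control MEFs. It kept 2.40 and 1.15 times the control fraction. Rrs1, which brings the 5S RNP into the large subunit, had 3085, 2489 and 2154 in CNOT3-depleted MEFs, against 3093, 479 and 322 in control MEFs, and its other member probe set had 4093, 3692 and 2781 in CNOT3-depleted MEFs, against 3673, 677 and 319 in control MEFs. The 2 Tex10 probe sets had 6222, 5776 and 5202 in CNOT3-depleted MEFs, against 5619, 866 and 613 in control MEFs, and for the other probe set 1783, 1271 and 1184 in CNOT3-depleted MEFs, against 1479.5, 204 and 156 in control MEFs. Tex10 belongs to a complex that helps process the large subunit. Dcaf13, a component of the small subunit processome, had 4512, 3317 and 2819 in CNOT3-depleted MEFs, against 3932, 633 and 265 in control MEFs.

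Other genes of this group differed in how much signal was left in CNOT3-depleted MEFs. Spata5, whose yeast counterpart is the ATPase Drg1 of large subunit maturation, fell the most, to 44.0% at 12 h in CNOT3-depleted MEFs, compared with 7.86% in control MEFs. The member probe set of Gtpbp4, a GTPase of the large subunit, stood at 124% and 107% of its 0 h signal at 6 and 12 h in CNOT3-depleted MEFs, compared with 30.2% and 14.7% in control MEFs. Another Gtpbp4 probe set, not a member, had 94.3% and 84.7% in CNOT3-depleted MEFs, compared with 32.2% and 18.3% in control MEFs. Krr1, of the small subunit processome, had 96.5% and 83.0% in CNOT3-depleted MEFs, compared with 15.8% and 16.6% in control MEFs.

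A list of 125 ribosome assembly genes, written after the values were seen, had 192 probe sets at 200 or more, and 69 of the 175 that are not members (39.4%) kept at least 2 times the control fraction at both times. Among all 14657 probe sets at 200 or more that are not members, 1812 (12.4%) did so. In the whole list 29 of the 192 met the 4-fold part of the rule at any 0 h ratio, 17 of them members. The cytosolic ribosomal protein genes, whose products the assembly factors build into ribosomes, had no member. None of their 86 probe sets kept 2 times the control fraction, and their signal left at 12 h had a median of 117% in CNOT3-depleted MEFs, compared with 181% in control MEFs. Their median stabilization was -0.55 on the log2 scale with the deposited values, 0.00 after quantile normalization and 0.11 with the arrays scaled to these genes, so that its direction depends on the scaling.

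The 4 genes of nuclear transport were Kpna2 and the nucleoporins Nup37, Nup43 and Nup50. Nup37 and Nup43 are parts of the Y-shaped complex of the nuclear pore and Nup50 lies at its nuclear basket. Nup37 had 1996, 1854 and 1689.7 in CNOT3-depleted MEFs, against 1827, 359 and 116 in control MEFs. The Nup43 probe sets had 653, 832 and 778 in CNOT3-depleted MEFs, against 683, 184 and 184 in control MEFs, and for the other probe set 1091, 1135 and 1054 in CNOT3-depleted MEFs, against 897, 217 and 186 in control MEFs. Nup43 did not fall in CNOT3-depleted MEFs within 6 h by either probe set, while its control signal was down to about the same level at 6 and at 12 h. Nup50 had 1092, 972 and 826 in CNOT3-depleted MEFs, against 1176, 233 and 135 in control MEFs. In a list of nucleoporins, also written after the values were seen, 19 of 46 probe sets that are not members (41.3%) kept at least 2 times the control fraction at both times, against 12.4% of all probe sets that are not members. One that did not was another Nup50 probe set, with 907, 144 and 79.7 in CNOT3-depleted MEFs, compared with 1209, 124 and 134 in control MEFs. This probe set fell in both cultures, so that the 2 readings of Nup50 disagree.

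Promoters of ribosome assembly and nuclear transport genes are shown as a sequence feature that the rule did not use, with these groups chosen after their values were seen. RefSeq promoters (GRCm38.p6, 250 bases before to 50 after a start) were given for 103 of the 131 member genes, or 78.6%, which is under the 80% set for a comparison over a set of genes, so a comparison of the members' promoters with those of other genes is void. As a description, 37 of the 123 promoters of member genes (30.1%) held the ETS core CCGGAAG or its complement CTTCCGG, searched on both strands and containing none of the other motifs searched, as did 8.86% of all 32851 promoters of the table and 19.0% of 8917 promoters of other genes at 200 or more. For ribosome assembly and nuclear transport, 9 of 17 promoters of 16 genes held it (52.9%). By gene this was 8 of 16, since overlapping Nup37 promoters hold the same stretches. With the comparison void, no difference between these shares was read. Windows around 6 of these matches follow, 5′ to 3′ on the strand of the gene, with the match in capitals, and Brix1, Nup37, Tex10, Fam207a and Surf6 each had matches on both sides of a start. Both windows are shown for Brix1 and Nup37 and 1 of the 2 for Tex10.
Brix1, chr15:10486002-10486030, minus strand: ctacctcgagaCCGGAAGcgagcgccttg
Brix1, chr15:10485913-10485941, minus strand: gagcggcagaaCCGGAAGtgcaggcagcg
Nup37, chr10:88146898-88146926, plus strand: cagccaggacgCCGGAAGgcagaggtttg
Nup37, chr10:88146986-88147014, plus strand: cgccctccgacCCGGAAGcagagcgggcg
Aatf, chr11:84513529-84513557, minus strand: gcgcgcgcctcCCGGAAGttgcctactgg
Tex10, chr4:48473532-48473560, minus strand: ctttcctccagCTTCCGGcgcagcccctc
A match is a run of letters and not a shown binding site. Other motifs in the members' promoters were the CCAAT box CCAAT in 39.0%, the GC box GGGCGG in 66.7%, the E-box CACGTG in 8.94%, the TATA box TATAAA in 6.50% and the cyclic AMP element TGACGTCA in 3.25%, each with its complement, against 37.4%, 66.3%, 10.6%, 6.92% and 3.23% of the 8917 promoters.

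Deadenylation itself was represented by Cnot11, Toe1 and Pde12. Cnot11, a subunit at the end of the CCR4-NOT scaffold opposite to CNOT3, had 1550.2, 1007 and 961 in CNOT3-depleted MEFs, against 1302, 172 and 58.6 in control MEFs. It had 65.0% and 62.0% left in CNOT3-depleted MEFs, compared with 13.2% and 4.50% in control MEFs. Its other 2 probe sets on the array were under 200 at 0 h. One had 163, 162 and 118 in CNOT3-depleted MEFs, compared with 159, 144 and 75.4 in control MEFs, which gives 1.09 and 1.52 times the control fraction, so that this dimmer reading showed little difference between the cultures. The other had no signal above 57 on any array. Toe1, a deadenylase of the nucleus that trims small nuclear RNAs, had 301, 221 and 149.8 in CNOT3-depleted MEFs, against 319, 42.4 and 12 in control MEFs. The last of these lay under 20. Another Toe1 probe set, slightly brighter at 0 h, had 337, 209 and 162 in CNOT3-depleted MEFs, compared with 342, 84.9 and 145 in control MEFs. It kept 2.50 times the control fraction at 6 h but 1.13 times at 12 h, so that the readings of Toe1 disagree at 12 h. Pde12, a phosphodiesterase that removes poly(A) in mitochondria, had 553, 409 and 399.9 in CNOT3-depleted MEFs, against 474, 82.6 and 43.5 in control MEFs. A second Pde12 probe set was brighter and had 1746, 1153 and 963 in CNOT3-depleted MEFs, compared with 1356, 83.2 and 85.2 in control MEFs. It kept 10.8 and 8.78 times the control fraction, and fell outside the set only because its 0 h ratio was 1.29. Of the 29 CCR4-NOT probe sets at 200 or more, Cnot11 was the one member, and 8 of the other 28 (28.6%) kept at least 2 times the control fraction at both times, beside 12.4% of all probe sets that are not members. Those 8 read Cnot2, Cnot4, Cnot6l and Cnot8. All 4 Cnot2 probe sets at 200 or more did so, with 0 h ratios of 1.43 to 1.48, whereas no Cnot6 or Cnot10 probe set at that level did. Cnot6, a catalytic subunit, had 2203, 2336 and 2088 at its brightest probe set in CNOT3-depleted MEFs, against 2960.4, 4132 and 4591 in control MEFs.

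In transcription and chromatin the 19 genes were Gtf2b, Cdyl, Akirin2, Twist1, Cebpg, Taf4b, Asf1a, Jmjd6, Kat5, Mphosph8, Meaf6, Eed, Actr8, Chd1, Cir1, Taf1b, Snapc2, Pml and Btaf1. Their 21 probe sets had a median of 64.0% left at 12 h in CNOT3-depleted MEFs, compared with 11% in control MEFs. Gtf2b, the general transcription factor TFIIB, had 2434, 1974 and 1956 in CNOT3-depleted MEFs, against 1971, 171 and 148 in control MEFs. Akirin2, a nuclear protein that links transcription factors to chromatin remodelling, had 5557, 3264 and 2012 in CNOT3-depleted MEFs, against 4655, 306 and 194 in control MEFs. Akirin2 fell to 36.2% at 12 h in CNOT3-depleted MEFs, the lowest value of the group. Twist1, a transcription factor of mesenchymal cells, had 1537, 1088 and 1142 in CNOT3-depleted MEFs, against 1324, 176 and 76.6 in control MEFs. The 2 member probe sets of Cdyl, a chromodomain protein, had 781, 594 and 699 in CNOT3-depleted MEFs, against 671, 80.6 and 42.2 in control MEFs, and for the other probe set 1357, 1030.3 and 869 in CNOT3-depleted MEFs, against 1271, 173 and 178 in control MEFs. Those of Jmjd6, an oxygenase of the Jumonji family, had 1081, 995 and 736 in CNOT3-depleted MEFs, against 976, 153 and 95.2 in control MEFs, and for the other probe set 1051, 753 and 678 in CNOT3-depleted MEFs, against 965, 131 and 138 in control MEFs. Both member readings of each of these genes show the cultures close at 0 h and apart at both later times, as the rule requires.

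In splicing and other RNA processing the 13 genes were Cwc22, Ppwd1, Lsm8, Prpf4b, Rbm33, Ddx20, Zfp638, Larp4, Prpf3, Aar2, Clk3, Ythdc2 and Ppil4. Lsm8, which makes the Lsm ring that binds U6 RNA in the nucleus, had 1971, 1371 and 1152 in CNOT3-depleted MEFs, against 2298, 249 and 107 in control MEFs. Zfp638, a zinc finger protein that binds nucleic acids, had 1563, 830.1 and 611 in CNOT3-depleted MEFs, against 1529, 151 and 72.4 in control MEFs, and for the other probe set 431, 309 and 176 in CNOT3-depleted MEFs, against 498, 77.3 and 46.1 in control MEFs. Its second probe set was lower in signal and kept 4.62 and 4.41 times the control fraction, against 5.39 and 8.26 times for the first. Of the 202 probe sets of zinc finger protein genes at 200 or more, Zfp638 and Zfp330 gave 3 members, and 11 of the other 199 (5.53%) kept at least 2 times the control fraction at both times, beside 12.4% overall. The median zinc finger probe set had 23.1% left at 12 h in CNOT3-depleted MEFs, compared with 24.1% in control MEFs. Zfp330 had 2456, 1553 and 1384 in CNOT3-depleted MEFs, against 2506, 375 and 246 in control MEFs.

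The 8 genes of transfer RNA and mitochondrial translation were Trmt1l, Yars2, Dtwd1, Fastkd2, Mrpl50, Qrsl1, Cdk5rap1 and Kti12. Trmt1l, which methylates guanosine in tRNAs, had 1100.5, 605 and 514 in CNOT3-depleted MEFs, against 931, 84.1 and 15.5 in control MEFs. It lay under 20 in control MEFs at 12 h. Yars2, the tyrosyl-tRNA synthetase of mitochondria, had 559, 741 and 583 in CNOT3-depleted MEFs, against 609, 138 and 53.7 in control MEFs, and for the other probe set 713, 705 and 642 in CNOT3-depleted MEFs, against 719, 159.7 and 83.3 in control MEFs. Mrpl50, a protein of the large mitochondrial ribosomal subunit, had 599, 667 and 595 in CNOT3-depleted MEFs, against 726, 191 and 71.9 in control MEFs, and for the other probe set 1331, 1048 and 1014 in CNOT3-depleted MEFs, against 1275, 216 and 167 in control MEFs. The weaker Yars2 and Mrpl50 probe sets were above their 0 h signal at 6 h in CNOT3-depleted MEFs, and the brighter ones were not.

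Cell division and genome maintenance had 14 genes, Nsmce3, Plk1, Msh6, Incenp, Fam83d, Kif2a, Nbn, Terf1, Rnf168, Camsap1, Fance, Wee1, Cep95 and Tdp2. Plk1, a kinase of mitosis, had 959.9, 879 and 836 in CNOT3-depleted MEFs, against 1135, 194 and 80.2 in control MEFs. Incenp, the scaffold of the chromosomal passenger complex, had 1878, 1566 and 1158 in CNOT3-depleted MEFs, against 2340.2, 239.8 and 215 in control MEFs. Its 0 h ratio of 0.80 is the lowest of the set. Among 45 mitosis and spindle probe sets at 200 or more, 17 of the 43 that are not members (39.5%) kept at least 2 times the control fraction at both times, beside 12.4% of all non-members, and the median 0 h ratio over the 45 was 0.63. Plk1 and Incenp were thus the ones of this list that met the rule for the 0 h level as well as for decay.

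Of the DNA repair list, Msh6, Nbn and Fance were members among 48 probe sets, and 14 of the other 45 (31.1%) kept at least 2 times the control fraction at both times, beside the 12.4% of all non-members. Msh6, a mismatch recognition protein, had 1363, 689 and 644 in CNOT3-depleted MEFs, against 1274, 99.7 and 70 in control MEFs. Nbn, of the complex that senses DNA double-strand breaks, had 893, 986 and 988 in CNOT3-depleted MEFs, against 741, 141 and 154 in control MEFs. Fance, of the Fanconi anaemia core complex, had 235, 133 and 126 in CNOT3-depleted MEFs, against 209, 26.4 and 10.8 in control MEFs. Msh6 lost about as much in CNOT3-depleted MEFs as the rule allows at 6 h, with 50.5% left, whereas Nbn had 110.4% left.

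Membrane traffic and the cytoskeleton held Stxbp3, Arf6, Wasl, Sec24b, Cyth3, Cog8, Pitpnb, Denn2b, Kif1b, Ist1, Pikfyve, Rab30, Tbc1d10b, Vps33b, Mtmr4 and Arfgap1. Arf6, a small GTPase of endosomes and the plasma membrane, had 4006, 2076 and 1407 in CNOT3-depleted MEFs, against 3325, 142 and 113 in control MEFs, and for the other probe set 9699, 5105 and 3862 in CNOT3-depleted MEFs, against 7786, 460.0 and 337 in control MEFs. The second probe set had the highest 0 h signal in CNOT3-depleted MEFs among the members. A further Arf6 probe set had 1399, 737 and 349 in CNOT3-depleted MEFs, compared with 2205, 174 and 84.1 in control MEFs, with a 0 h ratio of 0.63 and with 6.68 and 6.54 times the control fraction left. The fourth, with 186, 129 and 72.9 in CNOT3-depleted MEFs, compared with 344, 49.5 and 16.9 in control MEFs, was under 200 in CNOT3-depleted MEFs at 0 h and kept 4.82 and 6.76 times the control fraction. The 4 readings of Arf6 thus differed in the 0 h ratio, and only the 2 members lay within its limits. Cyth3, an exchange factor for Arf proteins, had 3087, 2231 and 2326 in CNOT3-depleted MEFs, against 3068, 388 and 199 in control MEFs. Pitpnb, a phosphatidylinositol transfer protein, had 3883, 3017 and 2652 in CNOT3-depleted MEFs, against 3547, 409 and 334 in control MEFs.

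Rab30, a Rab GTPase of the Golgi, was the only Rab gene of the set, with 330.2, 177 and 113 in CNOT3-depleted MEFs, against 269.5, 5.29 and 2.63 in control MEFs. Both later control signals were under 20. Of the 74 Rab probe sets that are not members, 14 (18.9%) kept at least 2 times the control fraction at both times, beside 12.4% of all probe sets that are not members. Vps33b, a protein of the Sec1 and Munc18 family like Stxbp3, had 248, 247 and 381 in CNOT3-depleted MEFs, against 274, 62.6 and 63.9 in control MEFs. It was the member with the most signal left at 12 h in CNOT3-depleted MEFs, 153%, and its control signal did not fall after 6 h. Of the other 67 SNARE and syntaxin-binding probe sets, 11 (16.4%) kept at least 2 times the control fraction at both times, beside 12.4%, but after quantile normalization the share was 7.46%, beside 8.15% of all probe sets that are not members.

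The 10 signalling genes were Stk24, Rapgef2, Bcar1, Ppp2r2a, Pawr, Ptpn2, S1pr2, Bcl10, Frmd6 and Ralgapb. Stk24, a kinase of the Ste20 family, had 923, 609.8 and 532 in CNOT3-depleted MEFs, against 807, 76 and 12.1 in control MEFs, and for the other probe set 3037, 2675 and 1999 in CNOT3-depleted MEFs, against 3086, 477 and 253 in control MEFs. Rapgef2, an exchange factor for Rap GTPases, had 3167, 2047 and 1874 in CNOT3-depleted MEFs, against 2732, 167 and 113 in control MEFs. Ptpn2, a phosphatase of JAK and STAT proteins, had 3309, 2229 and 2087 in CNOT3-depleted MEFs, against 2805, 432 and 243 in control MEFs, and for the other probe set 2207, 1625 and 1319.7 in CNOT3-depleted MEFs, against 1856, 281 and 174 in control MEFs. The 2 member readings of Ptpn2 were alike at each time in the fraction left. Bcl10, an adaptor of NF-kB signalling, had 3809, 3058 and 2855 in CNOT3-depleted MEFs, against 3398, 629 and 435 in control MEFs, and for the other probe set 1504, 1202 and 1107 in CNOT3-depleted MEFs, against 1346, 214 and 214 in control MEFs. Frmd6, a FERM domain protein, had 4195, 3101 and 3115 in CNOT3-depleted MEFs, against 3735, 658 and 464 in control MEFs. Pawr, a pro-apoptotic protein, had 2632, 3042 and 3145 in CNOT3-depleted MEFs, against 2586, 690.0 and 293 in control MEFs, so that its signal in CNOT3-depleted MEFs was highest at 12 h.

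The 8 genes of ubiquitin and SUMO were Rnf4, Klhl42, Pja1, Ube2g1, Trim25, Usp10, N4bp1 and Trim35. Ube2g1, a ubiquitin-conjugating enzyme, had 3837, 2721 and 2213 in CNOT3-depleted MEFs, against 3189, 467 and 214 in control MEFs. Rnf4, a ligase for proteins that carry SUMO, had 3034, 2137 and 1555 in CNOT3-depleted MEFs, against 3142, 241 and 161 in control MEFs. Of 50 other probe sets of ubiquitin-conjugating enzymes 6 (12.0%) kept at least 2 times the control fraction at both times, beside the 12.4% of all probe sets that are not members. F-box genes had no member among 56 probe sets, and 16 of them (28.6%) kept at least 2 times the control fraction. Mediator and PAF1 complex genes had no member either, with 9 of 41 (22%) and 6 of 32 (18.8%), also beside 12.4%.

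The 9 genes of metabolism and mitochondria were Opa3, Ppat, Clpx, Sqle, Uck2, Gmppb, Prps1l3, Coq10b and Pdhx, with the highest median stabilization of the role groups, 3.29 over 10 member probe sets. For Opa3 and 1 Uck2 probe set that measure used control signals under 20. Ppat, which catalyses the first committed step of purine synthesis, had 584, 664 and 601 in CNOT3-depleted MEFs, against 583, 82.8 and 24.4 in control MEFs. Its 0 h ratio was 1.0, and at 12 h its level in CNOT3-depleted MEFs was 24.6 times that of control MEFs. Another Ppat probe set, not a member, had a 0 h ratio of 0.71 and kept 3.46 and 3.72 times the control fraction. Clpx, the ATPase of a mitochondrial protease, had 1379, 902 and 695 in CNOT3-depleted MEFs, against 1145, 70.5 and 44.5 in control MEFs. Opa3, a mitochondrial protein, had 381, 282 and 188 in CNOT3-depleted MEFs, against 466, 10.6 and 8.99 in control MEFs, with both later control signals under 20. A brighter Opa3 probe set had 625, 575 and 498 in CNOT3-depleted MEFs, compared with 681, 287 and 168 in control MEFs. It kept 2.18 and 3.22 times the control fraction, and a further bright one 1.88 and 2.67 times. The fall of Opa3 in control MEFs was thus smaller by these readings. Uck2, a uridine and cytidine kinase, had 746, 472 and 431 in CNOT3-depleted MEFs, against 635, 11.4 and 72 in control MEFs, and for the other member probe set 1681, 1215 and 905 in CNOT3-depleted MEFs, against 1647, 167 and 118 in control MEFs. The brightest Uck2 probe set at 0 h, not a member, had 1752, 1583 and 1530 in CNOT3-depleted MEFs, compared with 1769, 834 and 347 in control MEFs. It kept 1.92 and 4.45 times the control fraction, and a further one kept 3.39 and 2.94 times. Sqle, squalene epoxidase of cholesterol synthesis, had 2754, 1644 and 1366 in CNOT3-depleted MEFs, against 2702, 256 and 77.3 in control MEFs. Zmynd19, with no role given, also lay under 20 in control MEFs at 12 h and had 512, 307 and 252 in CNOT3-depleted MEFs, against 610.3, 35.6 and 5.53 in control MEFs.

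The other probe sets of the member genes were not used to choose the set and give a second reading of the same mRNAs on the same arrays. They are not other cultures, and some may share probe sequence with a member. Of 159 such probe sets, 81 of 53 genes reached 200 at 0 h, and 78 did not and were left out. Of the 81, 50 (61.7%) kept at least 2 times the control fraction at both times, against 12.4% of the 14657 probe sets that are not members, and 9 kept at least 4 times, against 1.56%. Their median signal left at 6 and 12 h was 77.3% and 64.8% in CNOT3-depleted MEFs, compared with 24.8% and 19.6% in control MEFs. With the arrays put on the same distribution, 50.6% of the same 81 did so, against 8.15%, and with scaling to the ribosomal protein genes 87.7%, against 27.4%. Stabilization had a median of 1.61 on the log2 scale, against 0.11 for all 14657, and was above 0 for 79 of the 81. Among the 44 whose identifiers carry no suffix for shared or cross-matching probes, 26 kept at least 2 times the control fraction, against 12.9% of the 9743 such probe sets that are not members.

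**Figure D4:**
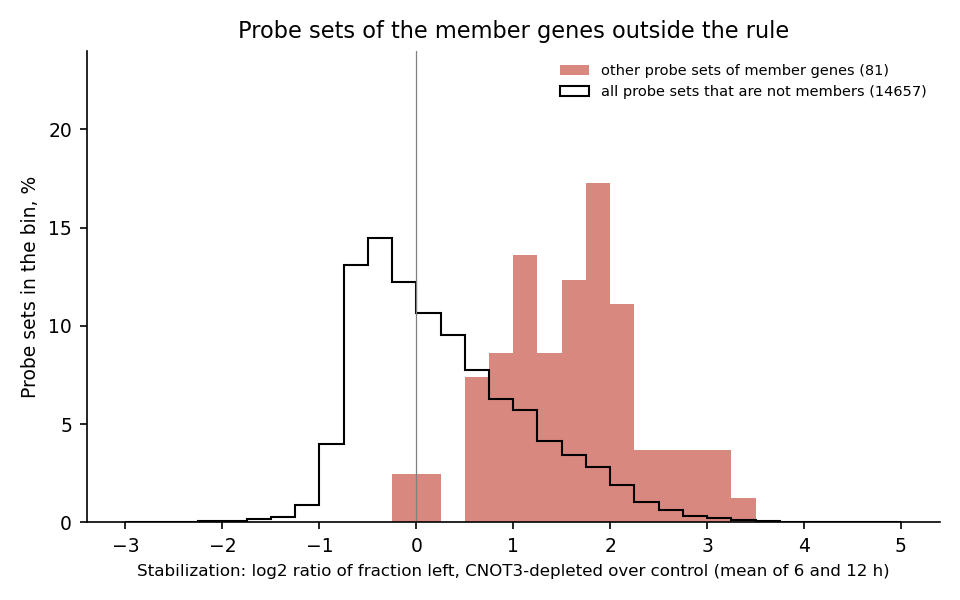
Share of probe sets in each bin (vertical, percent) by stabilization on the log2 scale (horizontal), for the 81 other probe sets of member genes (filled red) and all 14657 probe sets at 200 or more that are not members, these 81 included (black line). The red bars have a median of 1.61 and the black line a median of 0.11, and 2 red probe sets lie just below 0.

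The second readings did not all match. For 28 of the 53 genes every other probe set at 200 or more kept at least 2 times the control fraction at both times, and for 13 genes none did. The exceptions below 0 were both of Prpf4b, a splicing kinase. Its member probe set had 2073, 2117 and 1881 in CNOT3-depleted MEFs, against 1846, 394 and 135 in control MEFs, whereas another had 897, 699 and 667 in CNOT3-depleted MEFs, compared with 1307, 875 and 1295 in control MEFs. One more had 299.9, 90.4 and 75.9 in CNOT3-depleted MEFs, compared with 505, 161 and 124 in control MEFs. At 12 h another probe set kept less than 2 times the control fraction for Brix1, Toe1, Taf4b, S1pr2, Chd1 and Nup50. The same held for a probe set each of Bcar1, Bcl10, Wasl, Trp53bp2, Btaf1, Cyth3 and Kif2a. The 0 h level did not carry over to every probe set of a gene. Of the 81, 53 had a 0 h ratio within the limits of the rule, 13 were above and 15 below, where 60.4% of all probe sets lie within them. Mphosph8, for example, was a member at a 0 h ratio of 1.23, while its other probe sets had 1.72 and 1.66.

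**Figure D5:**
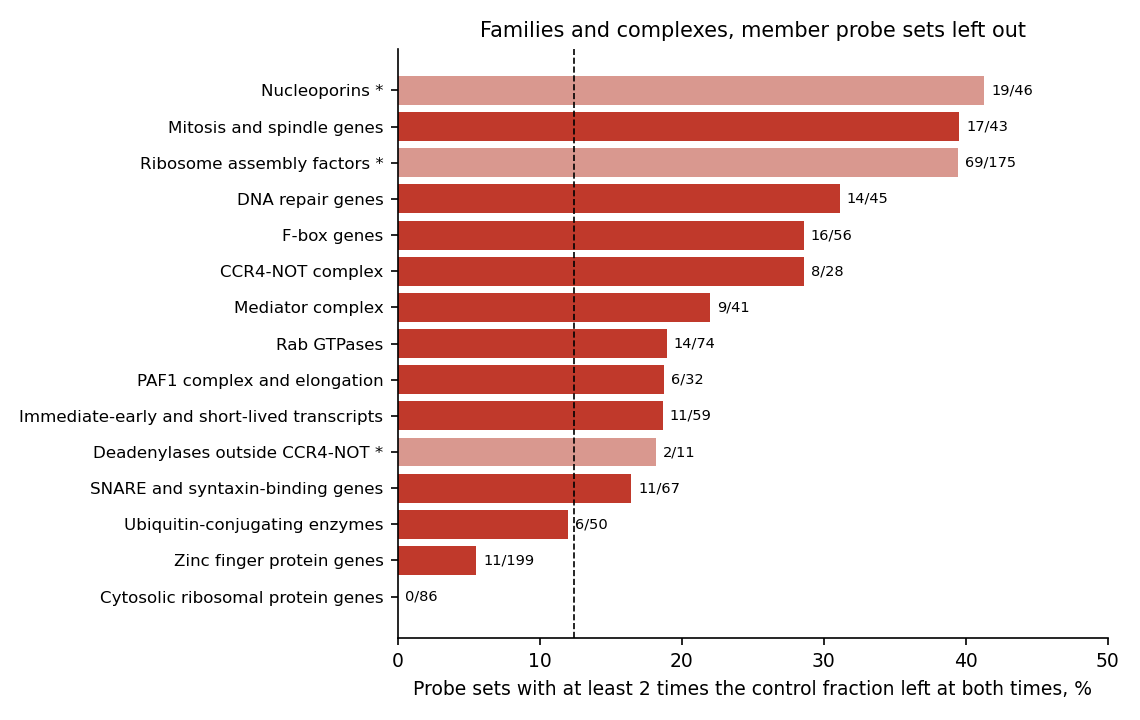
Percentage of probe sets that kept at least 2 times the control fraction at both 6 and 12 h (horizontal) for families and complexes (rows), with member probe sets left out and the counts beside each bar. The dashed line is the 12.4% of all 14657 probe sets that are not members, lists marked with an asterisk were written after values were seen, and nucleoporins (41.3%) and cytosolic ribosomal protein genes (none of 86) are at the ends.

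Gene length and chromosome were other features outside the rule. The span of 130 member genes found in RefSeq had a median of 26.0 kb with quartiles of 13 and 53.1 kb, against 25.2 kb with quartiles of 10.8 and 57.4 kb for 8412 other genes at 200 or more. One member gene lies on the X chromosome, or 0.769%, against 266 of the other genes, or 3.16%. Of the immediate-early and other short-lived transcripts no probe set was a member, and 11 of 59 (18.6%) kept at least 2 times the control fraction, beside 12.4% of all probe sets that are not members. After quantile normalization the share was 6.78%, beside 8.15%, so that its place above or below the background depends on the scaling. Their signal left at 12 h had a median of 18.7% in CNOT3-depleted MEFs, compared with 16.1% in control MEFs, so that these mRNAs fell in both cultures.

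The size of the set moved with the scaling of the arrays. With each array put on the same distribution (quantile normalization), 71 probe sets met the rule, 58 of them members, and scaled to the ribosomal protein genes, 442 did, 141 of them members.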

How the data were processed

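Expression was measured on GeneChips for the mouse genome with biotin-labelled cRNA from total RNA, 1 array for each of 6 conditions. The authors computed the deposited intensity values with MAS5 (no version or scaling target is stated), which gives linear signals per probe set. Affymetrix control probe sets were left out. Probe sets were named from the platform annotation, which lists 1 gene for 34945, several for 932 and none for 9160.

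Computations used Python 3.11.15, pandas 2.3.3 and numpy 2.4.6, and the rule was tested on simulated data. Signals under 20 were set to 20, and no rescaling was applied. With 1 array per condition, no test was made and no error can be given, so precision is limited by how few arrays there are. The members and gene lists were chosen with earlier results of these data known, and the lists of ribosome assembly factors, nucleoporins and deadenylases were added after values were seen. Values on all arrays were given for the 10 most stabilized and 10 brightest member genes, genes with 2 member probe sets, members of the other lists and the probe sets next to the 4-fold limit, and further members were named as examples chosen after their values were seen. Alternatives were 2 other scalings and other limits of the rule. Protein sequence features were not analysed here.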

Additional observations from a re-analysis of the deposited data

Results flagged for a closer look

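For 6 members the signal in CNOT3-depleted MEFs stood above its 0 h level at both 6 and 12 h of Act. D while that in control MEFs stood below it at both times. The difference between the cultures was not tested, since each condition has 1 array. At 12 h the signal left in CNOT3-depleted MEFs was 119% for Pawr, compared with 11.3% in control MEFs. Nbn had 111% in CNOT3-depleted MEFs, compared with 20.8% in control MEFs, Gtpbp4 107% in CNOT3-depleted MEFs, compared with 14.7% in control MEFs, and Ppat 103% in CNOT3-depleted MEFs, compared with 4.19% in control MEFs. One of the 2 Nup43 member probe sets had 119% in CNOT3-depleted MEFs, compared with 27.0% in control MEFs, and one of the 2 Yars2 member probe sets had 104% in CNOT3-depleted MEFs, compared with 8.81% in control MEFs. The other Nup43 probe set was above its 0 h signal at 6 h alone (104% and then 96.6% in CNOT3-depleted MEFs), and the other Yars2 probe set at neither time (98.9% and 90.1%). Probe sets of Gtpbp4 and Ppat outside the set did not stay above 0 h in CNOT3-depleted MEFs either. One of Gtpbp4 had 101% and 97.4% at 6 and 12 h, and a brighter one 94.3% and 84.7%. That of Ppat at 200 or more had 97.5% and 80.9%. Signals are relative to the array, and over all 14807 probe sets the median left at 12 h was 98.9% in CNOT3-depleted MEFs, compared with 73.4% in control MEFs.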

How the results depend on the processing

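For the set, the medians, the other probe sets and the lists in sum, 95 values were recomputed. Of these, 73 stayed within 1.5 times the reported value and 22 did not. For the share of other probe sets, the limit was its 95% Wilson interval. These values are counts and percentages without a sign, so a change of direction cannot be read from them. The sign of the median stabilization of the ribosomal protein genes did depend on the scaling. So did the place of the SNARE and syntaxin-binding list and of the immediate-early list above or below the background. The set of 150 probe sets and 131 genes became 71 and 65 after quantile normalization, 442 and 363 with scaling to the ribosomal protein genes, 69 and 65 at a 0 h ratio from 0.9 to its reciprocal, 238 and 203 at 0.67 to 1.5, 364 and 304 at 3 times, 66 and 60 at 5 times, and 699 and 566 with the 12 h limit alone. With the cultures exchanged it was 0 and 0. With the 12 h limit alone the median left in control MEFs was 32.1% at 6 h and 13.6% at 12 h. Over the set formed with ribosomal protein scaling, 82.1% of 234 other probe sets kept at least 2 times the control fraction. The gene lists, without those added later, had 136 such probe sets in all, 87 after quantile normalization, 85 with the brightest probe set of each gene and 251 with ribosomal protein scaling, which was added for the lists after seeing the data. By single lists 21 of 36 recomputed counts moved by over 1.5 times. Leaving out probe sets of the _x, _s and _a types, chosen after seeing the data, left 105. Quantile normalization moved the median stabilization of all 14807 probe sets by -0.23 and ribosomal protein scaling by 0.66 on the log2 scale. No paired analysis was possible because each condition has 1 array, and for the same reason no replicate could be left out. Control signals near 20 limit the folds of 15 members.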
